A study of Mus musculus with 6 samples.

Results

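The genes examined here encode the growth factors that drive the production, survival and activation of myeloid cells: Csf1, Csf2, Csf3 and Il34. They were chosen by gene name from a table of 54532 genes, and all 4 members were found in it. RNA came from MB49, a bladder cancer cell line of a male mouse, in its Y-positive form after CRISPR editing. The Y-KO group, labelled as a CRISPR knockout of Y, and the Y-Scr group, which received a non-targeting guide RNA, had 3 libraries each. All 6 were treated as 1 batch, and the sample titles name no batch. Cells of both groups had been transduced, gated for tRFP, a red fluorescent reporter, and expanded clonally, per the labels' protocols. The guide behind Y-KO, and whether the libraries of a group came from separate clones or cultures, are not given in the sources used here. Spread between libraries, on which all p-values rest, may for that reason be technical. Because clones are not labelled, a difference between clones and a difference between the groups cannot be told apart.

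Colony-stimulating factors are secreted proteins that act on blood cell precursors and on mature myeloid cells. M-CSF, the product of Csf1, and IL-34, the product of Il34, both bind the receptor CSF1R and sustain macrophages. GM-CSF, the product of Csf2, acts on granulocytes, macrophages and dendritic cells through an alpha chain and a shared beta chain. G-CSF, the product of Csf3, drives the production and release of neutrophils. Tumor cells of several kinds are known to secrete these factors. Csf2 and Csf3 are classical inducible genes, switched on by NF-kB and AP-1 factors after inflammatory signals, and their mRNAs carry AU-rich stretches that mark them for rapid decay.

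Those AU-rich stretches are shown first, since the members differ in them, though the search for them was added after values were seen. For each gene, the transcript model with the longest region after the stop codon was taken from GENCODE M21 (GRCm38). The 30 bases with the most ATTTA pentamers are printed 5′ to 3′ as DNA, with the pentamers in capitals. The window of Csf2 lies at chr11:54247329-54247358 (minus strand), that of Csf3 at chr11:98702984-98703013 (plus strand), that of Csf1 at chr3:107741109-107741138 (minus strand) and that of Il34 at chr8:110741845-110741874 (minus strand).
Csf2: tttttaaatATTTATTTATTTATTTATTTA
Csf3: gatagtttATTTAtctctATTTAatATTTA
Csf1: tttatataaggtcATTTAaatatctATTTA
Il34: tggttcctttttctattaaatggccATTTA
The Csf2 window held 5 overlapping pentamers in a row, and the whole 317-base region of Csf2 held 9, or 28.4 per kilobase. Csf3 had 6 in 669 bases (8.97 per kilobase), Csf1 had 4 in 2111 bases (1.89 per kilobase) and Il34 had 1 in 605 bases (1.65 per kilobase). Over 20674 genes the median was 1.28 per kilobase, and 66.2% of genes held at least 1 pentamer. The density of Csf2 exceeded that of 99.9% of genes and that of Csf3 exceeded 98.5%, while Csf1 and Il34 stood above 61.9% and 57.4%. The nonamer TTATTTATT occurred 4 times in Csf2 and 0 times in the other 3 members, against 7.78% of all genes with at least 1. These are counts of letters in a reference, and decay was not measured.

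Expression of 3 of the 4 members fell in Y-KO cells and none rose. Csf2 was nearly lost, Csf3 fell to a small fraction of its Y-Scr level, Csf1 fell 2.02-fold, and Il34 did not pass the test. Over all 12907 genes that passed the low-count filter, 23.0% were called lower at an adjusted p under 0.05 and 20.7% were called higher, 43.6% in all. With 4 members, a count of 3 against that background describes these genes and carries no test of the family. All 4 members passed the filter, and all of their values are given as CPM, counts relative to the library size, with sizes scaled by the trimmed mean of M values (TMM).

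Csf2 (ENSMUSG00000018916, chromosome 11, 54247271 to 54249667, minus strand, GRCm38) had 16, 9 and 8 counts in Y-KO 1, 2 and 3, against 2110, 2300 and 2739 counts in Y-Scr 1, 2 and 3. On the CPM scale these were 0.859, 0.560 and 0.453 in Y-KO and 134, 139 and 114 in Y-Scr. The groups lay far apart, with every Y-Scr library above every Y-KO library. The mean was 0.624 ± 0.211 CPM in Y-KO and 129 ± 13.0 CPM in Y-Scr (SD, n = 3 each), so that Y-KO cells kept 0.484% of the Y-Scr level. The log2 fold change, Y-KO minus Y-Scr, was -7.66 ± 0.15 (SE), with a 95% interval of -7.98 to -7.34 (adjusted p = 6.63e-18, edgeR's quasi-likelihood test). It was the 16th lowest change among the 12907 tested genes. A count of 3 stands at 0.161 to 0.187 CPM in the Y-KO libraries, so Csf2 remained detectable there. The exact 95% Poisson intervals of the Y-KO libraries, which cover counting error only, overlapped (0.491 to 1.40 CPM in Y-KO 1, 0.256 to 1.06 in Y-KO 2 and 0.196 to 0.893 in Y-KO 3). The antisense gene Gm12223 overlaps Csf2 and had 0 counts in Y-KO and 9 in Y-Scr. In bulk RNA, fewer cells that express a gene and less RNA per cell cannot be told apart.

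Csf3 (ENSMUSG00000038067, chromosome 11, 98701263 to 98703629, plus strand) had 56, 86 and 97 counts in Y-KO 1, 2 and 3 and 1018, 1088 and 1478 counts in Y-Scr 1, 2 and 3. The CPM values were 3.01, 5.35 and 5.49 in Y-KO, against 64.4, 65.8 and 61.7 in Y-Scr. The Y-Scr libraries were close to each other, and all of them lay above the Y-KO libraries, among which Y-KO 1 was lowest. The mean was 4.62 ± 1.40 CPM in Y-KO and 64.0 ± 2.07 CPM in Y-Scr, which leaves 7.22% of the Y-Scr level. Csf3 fell by 3.80 ± 0.15 (SE) on the log2 scale, with a 95% interval of -4.12 to -3.48 (adjusted p = 1.85e-11, edgeR's quasi-likelihood test), rank 62 from the lowest. Within Y-KO, the Poisson interval of Y-KO 1 (2.27 to 3.91 CPM) did not overlap those of Y-KO 2 (4.28 to 6.61) and Y-KO 3 (4.46 to 6.70). Y-KO 1 was thus the library with the least Csf3 and, on its point value, the most Csf2.

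Csf1 (ENSMUSG00000014599, chromosome 3, 107741048 to 107760469, minus strand) stayed well expressed in both groups. It had 3749, 3457 and 3325 counts in Y-KO 1, 2 and 3, against 6735, 6338 and 9863 in Y-Scr 1, 2 and 3. The CPM values were 201, 215 and 188 in Y-KO and 426, 383 and 412 in Y-Scr, with a wide gap between the groups. The mean was 202 ± 13.4 CPM in Y-KO and 407 ± 21.8 CPM in Y-Scr. Csf1 fell by 1.01 ± 0.07 (SE) on the log2 scale, to 49.5% of the Y-Scr level. The 95% interval was -1.16 to -0.87 (adjusted p = 4.58e-10, edgeR's quasi-likelihood test). Counts per gene do not tell its transcript forms apart, which encode secreted and membrane-bound M-CSF.

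Il34 (ENSMUSG00000031750, chromosome 8, 110741829 to 110805924, minus strand) was the member without a call. It had 602, 553 and 566 counts in Y-KO 1, 2 and 3 and 565, 620 and 767 counts in Y-Scr 1, 2 and 3. The CPM values were 32.3, 34.4 and 32.1 in Y-KO, against 35.8, 37.5 and 32.0 in Y-Scr, and the groups overlapped because Y-Scr 3 was the lowest of the 6 libraries. The mean was 32.9 ± 1.29 CPM in Y-KO and 35.1 ± 2.79 CPM in Y-Scr. The log2 fold change was -0.09 ± 0.09 (SE), with an adjusted p of 0.456 in edgeR's quasi-likelihood test. Its 95% interval, -0.28 to 0.10, leaves out falls of the size seen for the other 3 members, and the point value was 0.04 once changes that followed gene length were removed. The antisense genes Gm15895 (11 counts in Y-KO and 15 in Y-Scr) and Gm15894 (0 in both) overlap Il34.

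**Figure D1:**
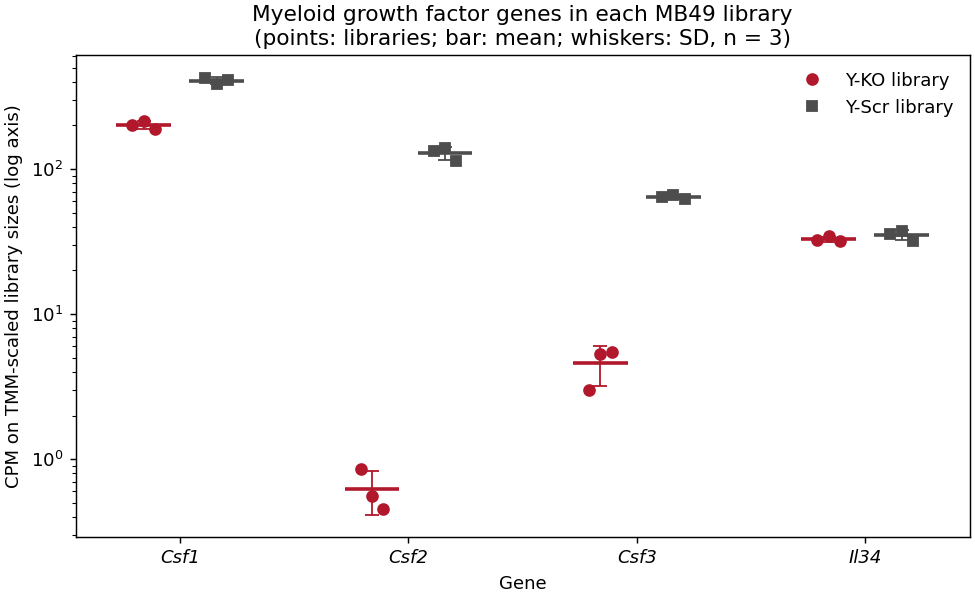
CPM of Csf1, Csf2, Csf3 and Il34 in each library (log axis), Y-KO in red and Y-Scr in grey, with the mean as a bar and the SD as whiskers (n = 3 each). The Y-KO libraries lie below all Y-Scr libraries for Csf1 (188 to 215 against 383 to 426 CPM), Csf2 and Csf3, and the groups overlap for Il34.

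Groups that do not overlap were frequent, at 52.9% of all tested genes, and the same was seen for Csf1, Csf2 and Csf3. The order of the members differed between the groups. Levels between genes were compared as RPKM, that is CPM divided by the length of the gene model in kilobases. In Y-KO, Csf1 led with 38.2 ± 2.54 RPKM, followed by Il34 (16.8 ± 0.658), Csf3 (3.27 ± 0.988) and Csf2 (0.780 ± 0.263). In Y-Scr, Csf2 led with 161 ± 16.2 RPKM, followed by Csf1 (77.1 ± 4.13), Csf3 (45.3 ± 1.47) and Il34 (17.9 ± 1.42). In both groups, neighbours in this order did not overlap in any library. Csf2 took the last place in Y-KO and the first in Y-Scr. Its mean RPKM exceeded that of 13.1% of tested genes in Y-KO and 97.3% in Y-Scr. For Csf3 these shares were 34.1% in Y-KO and 89.5% in Y-Scr, for Csf1 88.1% in Y-KO and 94.1% in Y-Scr, and for Il34 74.3% in Y-KO and 74.9% in Y-Scr.

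The summed RPKM of the 4 genes was 57.8, 62.8 and 56.5 in Y-KO 1, 2 and 3, against 311, 312 and 281 in Y-Scr 1, 2 and 3. Csf2 made up 1.33 ± 0.464% of the sum in Y-KO and 53.4 ± 2.42% in Y-Scr. Csf3 made up 5.53 ± 1.66% in Y-KO and 15.0 ± 0.464% in Y-Scr. The ligands of CSF1R took the larger part in Y-KO. Csf1 held 64.6 ± 1.41% of the sum in Y-KO and 25.6 ± 2.26% in Y-Scr, and Il34 held 28.5 ± 0.50% in Y-KO and 5.94 ± 0.170% in Y-Scr.

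**Figure D2:**
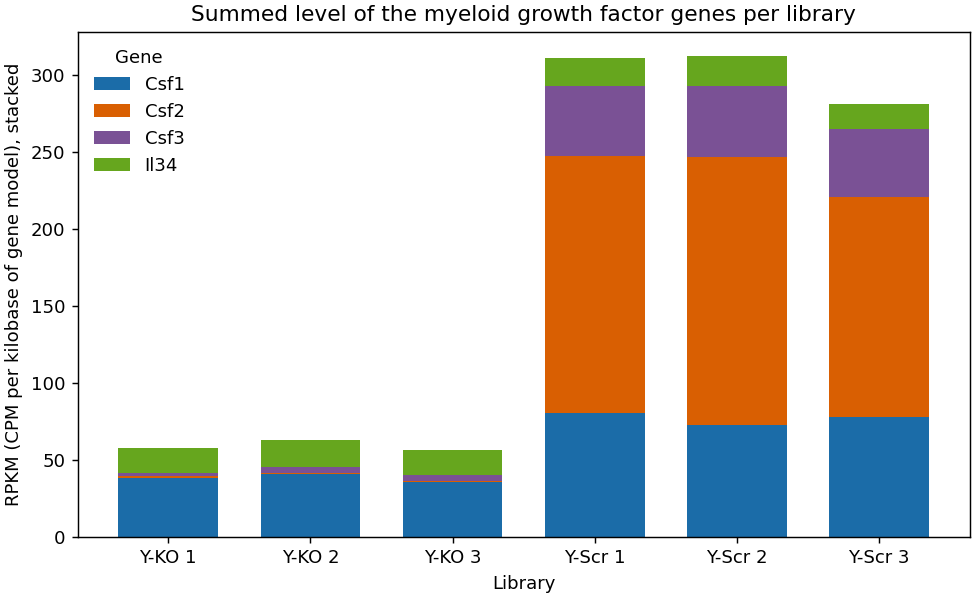
Stacked RPKM of the 4 genes in each library. The 3 Y-KO columns reach 56.5 to 62.8 RPKM and are mostly Csf1 and Il34, and the 3 Y-Scr columns reach 281 to 312 RPKM with Csf2 as the largest part.

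Ratios between members within a library do not depend on library scaling. The log2 ratio of Csf1 to Csf2 per length was 5.15, 5.86 and 5.98 in Y-KO and -1.05, -1.26 and -0.87 in Y-Scr, a difference of 6.72. That of Csf2 to Csf3 was -0.99, -2.44 and -2.78 in Y-KO and 1.87, 1.90 and 1.71 in Y-Scr, a difference of -3.90. Csf3 fell more than Csf1, since the ratio of Csf1 to Csf3 was 4.16, 3.43 and 3.20 in Y-KO, against 0.82, 0.64 and 0.84 in Y-Scr. The ligands that share CSF1R also separated, with a ratio of Csf1 to Il34 of 1.21, 1.21 and 1.12 in Y-KO and 2.14, 1.92 and 2.25 in Y-Scr. Built from 4 genes, the 6 pairs are not independent, and no share over all gene pairs was taken. None of the 6 pairs overlapped between groups. Each had p = 0.1 in a two-sided exact permutation test, the smallest that 3 against 3 libraries can give, and 0.1 after Benjamini-Hochberg adjustment over the 6 pairs.

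The upstream sequence could be shown for Csf1 and Csf2, which were matched by symbol in the RefSeq promoter table (GRCm38.p6). Csf3 and Il34 were not matched. The 250 bases before the RefSeq start site are printed 5′ to 3′ on the minus strand, chr3:107760470-107760719 for Csf1 and chr11:54249900-54250149 for Csf2. The start site of Csf1 is that of the deposited gene model, and the one of Csf2 lies 232 bases upstream of the deposited model. Capitals mark matches to a NF-kB motif, the GC box GGGCGG and the C/EBP motif TTGCNNAA, on either strand.
Csf1: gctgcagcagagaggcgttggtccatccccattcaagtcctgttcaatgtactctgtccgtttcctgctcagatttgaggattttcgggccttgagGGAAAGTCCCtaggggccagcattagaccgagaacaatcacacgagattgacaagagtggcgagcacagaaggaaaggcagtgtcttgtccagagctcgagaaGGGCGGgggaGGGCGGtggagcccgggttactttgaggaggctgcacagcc
Csf2: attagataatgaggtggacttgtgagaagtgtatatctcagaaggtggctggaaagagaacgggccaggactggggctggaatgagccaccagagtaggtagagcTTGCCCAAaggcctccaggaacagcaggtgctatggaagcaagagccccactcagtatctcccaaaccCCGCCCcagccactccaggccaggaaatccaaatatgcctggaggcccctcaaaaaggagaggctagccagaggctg
The Csf1 window held 1 NF-kB match, which begins 154 bases before the start site and is found in 5.0% of 32851 promoter windows of this length. It also held 2 GC boxes (32.7% of windows). The NF-kB match of Csf1 overlaps one of its 3 GGAA cores of ETS factors (93.4% of windows). The Csf2 window held 1 C/EBP match (9.56% of windows), 1 GC box and 5 GGAA cores. The TATA box TATAAA (12.4% of windows), the AP-1 motif TGANTCA (6.75%), the CK-1 element of cytokine genes (0.697%), the interferon-stimulated response element (2.98%) and the NFAT motif GGAAAA (20.4%) were found in neither window. The unit CATTA or CATTT was found 1 time in each and in 52.5% of windows. These matches describe letters and not binding. The 232 bases directly before the deposited start of Csf2 were not searched, so the motifs not found for Csf2 say nothing about its proximal promoter.

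The receptors of these factors were barely detected in either group. Csf2ra, the alpha chain for GM-CSF, Csf3r, the receptor for G-CSF, and Ptprz1, another receptor for IL-34, had 0 counts in all 6 libraries. Csf1r, the receptor for M-CSF and IL-34, had 1 count over the Y-KO libraries and 0 over the Y-Scr libraries. The beta chain gene Csf2rb had 6 counts in Y-KO and 5 in Y-Scr, and its near copy Csf2rb2, with which it could share reads, had 3 in Y-KO and 2 in Y-Scr. A count of 0 allows up to 3 counts per library, or 0.125 to 0.190 CPM. Sdc1, a surface proteoglycan that binds IL-34, was the 1 receptor of 7 that passed the filter. It stood at 165 CPM in Y-KO and 159 CPM in Y-Scr, with a log2 fold change of 0.05 ± 0.06 (SE) and an adjusted p of 0.529 (edgeR's quasi-likelihood test).

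Other genes for growth factors of blood cells were set beside the members. Of 15 listed, 10 were tested, of which 5 fell and 0 rose, against 23.0% lower and 20.7% higher over all tested genes. Their median log2 fold change was -1.49, against -0.01 over all tested genes. The falls belonged to Il6, Lif and Osm, of the IL-6 family, to Il15, a growth factor of lymphocytes, and to Tslp, which acts on dendritic cells. Lif stood at 24.4 CPM in Y-KO and 74.7 CPM in Y-Scr (log2 fold change -1.62 ± 0.08 (SE), adjusted p = 6.87e-12, edgeR's quasi-likelihood test). Il15 stood at 4.35 CPM in Y-KO and 13.4 CPM in Y-Scr (-1.62 ± 0.16), Il6 at 0.287 CPM in Y-KO and 5.91 CPM in Y-Scr (-4.33 ± 0.32), and Osm at 1.03 CPM in Y-KO and 3.06 CPM in Y-Scr (-1.56 ± 0.37). Tslp rested on few reads, with 2, 8 and 0 counts in Y-KO and 14, 16 and 15 in Y-Scr. Its change was -2.04 ± 0.71, and the call was lost without Y-KO 1 (-1.73), Y-KO 3 (-1.46), Y-Scr 1 (-1.97) or Y-Scr 2 (-1.90).

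Kitl, which encodes stem cell factor, was the most abundant of this list and had no call, at 206 CPM in Y-KO and 203 CPM in Y-Scr (log2 fold change 0.02 ± 0.07, SE). Flt3l, for a growth factor of dendritic cells, stood at 5.14 CPM in Y-KO and 6.45 CPM in Y-Scr (-0.33 ± 0.18), and neither Thpo (-0.75 ± 0.37) nor Il7 (-0.17 ± 0.23) passed. Il11 stood at -1.43 ± 0.58 with an adjusted p of 0.0515 (edgeR's quasi-likelihood test), on 14 counts in Y-KO and 41 in Y-Scr, and it was called without Y-KO 3 (-2.03), by limma-voom (-1.48) and among protein-coding genes alone (-1.43). Il3 and Il5, relatives of Csf2 that use the same beta chain or its copy and lie on the same chromosome, had 0 counts in every library, as did Epo, Il33 and Cxcl12. Among the tested factors outside the 4 members, Il11 (8.38 ATTTA per kilobase), Il6 (6.0) and Osm (5.90) had the densest pentamers. Il15 had 3.55, Tslp 2.92 and Lif 2.20. Of the factors without a call, Il11 was the densest of all those tested, and Kitl had 3.16, above Lif. Il7 had 1.56, and Flt3l and Thpo had 0. The nonamer TTATTTATT occurred 5 times in Il11, against 4 in Csf2. Lif held it 2 times and the remaining tested factors, Il6 and Osm included, 0 times.

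**Figure D3:**
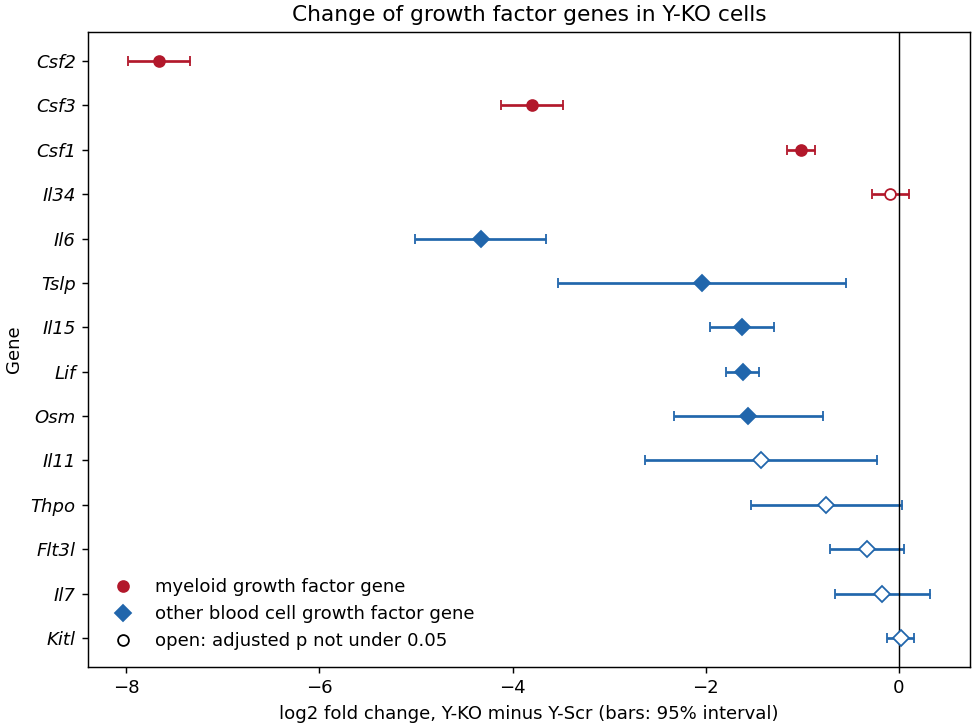
Log2 fold change, Y-KO minus Y-Scr, with its 95% interval, for the 4 members (red) and the 10 other tested growth factor genes (blue). Filled symbols passed an adjusted p of 0.05, and Csf2 at -7.66 and Il6 at -4.33 lie farthest to the left.

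Genes for signals that are known to induce Csf2 and Csf3 were examined next. Of 19 listed cytokine, receptor and adaptor genes, 15 were tested, of which 8 fell and 1 rose, with a median of -0.23, against 23.0% lower and 20.7% higher over all tested genes. Traf2, an adaptor of TNF receptors, fell to 91.1 CPM in Y-KO, against 134 CPM in Y-Scr, a log2 fold change of -0.56 ± 0.06 (SE) with an adjusted p of 7.25e-07 in edgeR's quasi-likelihood test. The toll-like receptor genes Tlr2 (log2 fold change -0.58 ± 0.09) and Tlr4 (-0.49 ± 0.09) fell, as did the TNF receptor gene Tnfrsf1b (-0.43 ± 0.08). Il1rn, which encodes the antagonist of the IL-1 receptor, fell by 1.58 ± 0.33. Ripk1, a kinase downstream of TNF receptors, was the gene that rose, by 0.27 ± 0.09, and the call was lost without Y-KO 1 (0.26), Y-KO 3 (0.27), Y-Scr 2 (0.23) or Y-Scr 3 (0.22) and with the length trend removed (0.14). The inducing cytokines themselves were near or at the floor. Il1a had 0, 0 and 0 counts in Y-KO and 8, 3 and 4 in Y-Scr, Tnf had 0 in Y-KO and 4 in Y-Scr, Il1b had 2 in Y-KO and 0 in Y-Scr, and Il17a had 0 in all libraries.

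Of 23 listed transcription factors known to act at these genes, 21 were tested, of which 13 fell and 3 rose, with a median of -0.28. Over all tested genes, 23.0% were lower and 20.7% higher. The AP-1 genes Junb (log2 fold change -1.71 ± 0.06, SE), Fosl1 (-1.10 ± 0.06) and Jun (-0.81 ± 0.06) fell. Rela, the main activating subunit of NF-kB, fell to 104 CPM in Y-KO, against 202 CPM in Y-Scr (-0.96 ± 0.06, adjusted p = 3.81e-10, edgeR's quasi-likelihood test). Cebpd, an inducible C/EBP factor, fell by 1.32 ± 0.13. The 3 that rose were Sp1 (0.37 ± 0.07), Nfatc3 (0.37 ± 0.09) and Nfatc1 (0.32 ± 0.10), and Nfatc1 lost its call without Y-KO 2 (0.28) or Y-Scr 2 (0.27) and with the length trend removed (0.20). Nfatc3 lost it with the length trend removed together with the replicate block (0.19). Nfatc2 and Cebpa were too weakly expressed to be tested.

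Of 13 genes listed and tested for proteins that bind AU-rich or other decay elements of cytokine mRNAs, 4 fell and 5 rose, with a median of -0.04, and 3 rose with the length trend removed. With 23.0% lower and 20.7% higher over all tested genes, nothing is read from these counts about the list. Zfp36, which encodes tristetraprolin, a protein that directs mRNAs with AU-rich stretches to decay, fell by 2.38 ± 0.11 (SE) on the log2 scale, to 11.2 CPM in Y-KO, against 58.7 CPM in Y-Scr (adjusted p = 1.8e-12, edgeR's quasi-likelihood test). Arid5a, which stabilizes cytokine mRNAs, fell by 1.28 ± 0.07, and Zc3h12a, which encodes the ribonuclease regnase-1, fell by 0.95 ± 0.11. The decay factor genes Khsrp and Hnrnpd rose by 0.68 ± 0.07 and 0.54 ± 0.08, and Zfp36l2, a relative of Zfp36, rose by 0.37 ± 0.06. Elavl1, which encodes the stabilizing protein HuR, stood at 0.12 ± 0.07, without a call.

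Of 16 listed genes that carry the signal of these receptors, 15 were tested, of which 4 fell and 5 rose, with a median of 0.07, and 3 rose without Y-KO 2. Over all tested genes, 23.0% were lower and 20.7% higher, and nothing is read from these counts about the list. Cish, a feedback gene induced by STAT5, had 6, 2 and 8 counts in Y-KO and 49, 43 and 56 in Y-Scr, and its log2 fold change was -3.10 ± 0.44 (SE), with an adjusted p of 1.35e-05 in edgeR's quasi-likelihood test. Socs3, a feedback gene of STAT3 signalling, fell by 0.64 ± 0.10, and the kinase gene Lyn fell by 0.32 ± 0.07. Stat5a, a transcription factor that GM-CSF activates, rose by 0.47 ± 0.10 and Jak1 rose by 0.27 ± 0.07. Jak1 lost its call with the length trend removed together with the replicate block (0.17).

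**Figure D4:**
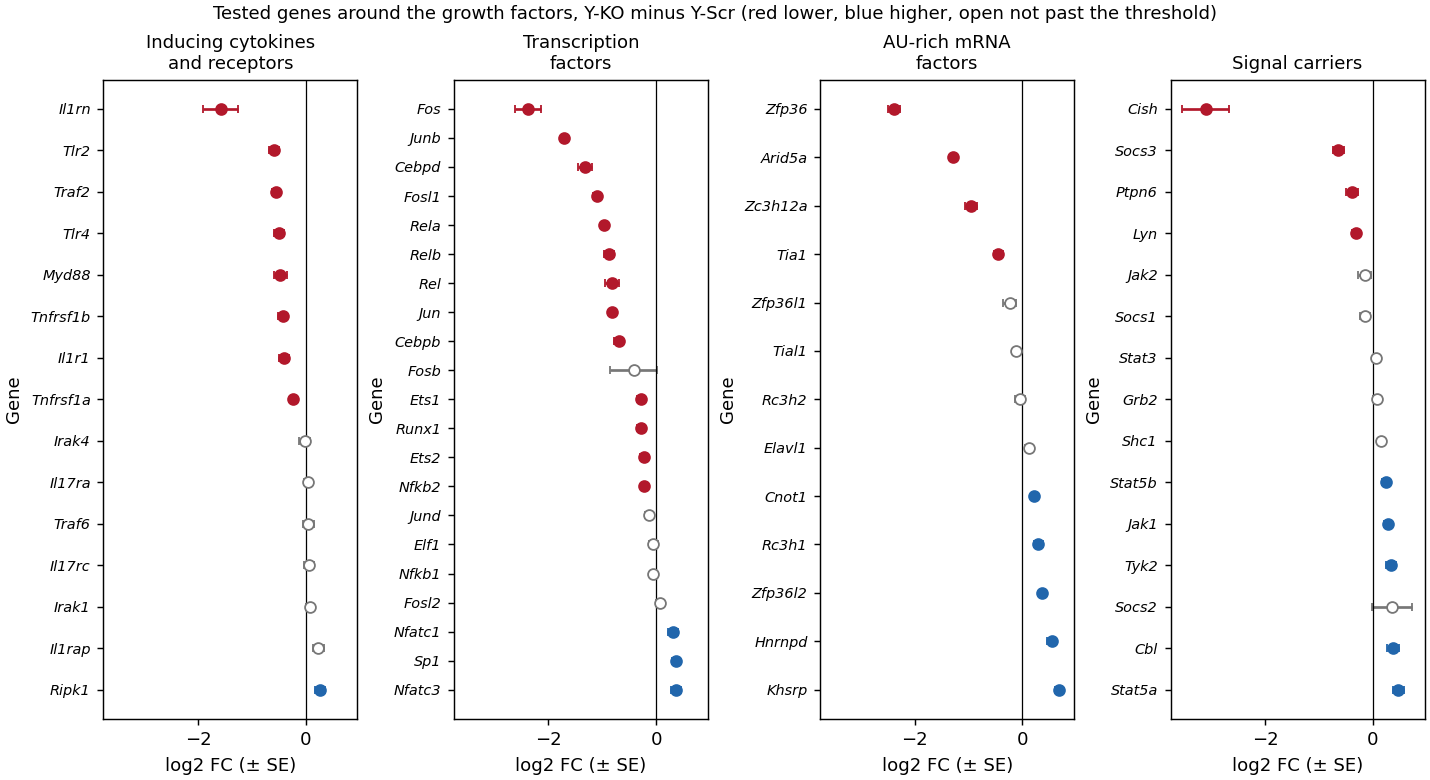
Log2 fold change ± SE, Y-KO minus Y-Scr, for every tested gene of the lists of inducing signals (15 genes), transcription factors (21), AU-rich mRNA factors (13) and signal carriers (15). Red genes were lower, blue genes higher and open symbols not past the threshold, and Cish (-3.10), Zfp36 (-2.38) and Fos (-2.38) are the lowest.

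Within 250 kb of a member, 32 other genes were tested, of which 6 fell and 10 rose, with a median of 0.11. Around Csf3, 13 were tested, of which 2 fell and 6 rose. Of 7 around Csf1, 1 fell and 2 rose, of 3 around Csf2, 1 fell and 0 rose, and of 9 around Il34, 2 fell and 2 rose. Over all tested genes, 23.0% were lower and 20.7% higher, and nothing is read from these counts about the neighbours as a group. Csf3 lies between Psmd3, a proteasome subunit gene 5.28 kb away, and Med24, a mediator subunit gene 0.962 kb away. Psmd3 rose by 0.40 ± 0.07 (SE) on the log2 scale (203 CPM in Y-KO and 154 CPM in Y-Scr) and Med24 rose by 0.40 ± 0.09 (45.9 CPM in Y-KO and 34.7 CPM in Y-Scr), against -3.80 for Csf3. No tested gene lay within 100 kb of Csf2, and its nearest tested genes, P4ha2 at 116 kb (-0.20 ± 0.42) and Fnip1 at 189 kb (-0.12 ± 0.08), were not called. Fnip1 was called lower without Y-Scr 3 (-0.23) and with the length trend removed (-0.22). Beside Csf1, Ahcyl1 rose by 0.38 ± 0.06 and Gm36211 stood at -0.36 ± 0.30. Beside Il34, Sf3b3, a splicing factor gene, rose by 0.29 ± 0.07 and Mtss1l rose by 0.58 ± 0.21. The call of Sf3b3 was lost with the length trend removed (0.12), and that of Mtss1l without Y-KO 1 (0.59), Y-KO 2 (0.59), Y-KO 3 (0.57) or Y-Scr 2 (0.49). Mtss1l also lost it with the length trend removed together with the replicate block (0.54).

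**Figure D5:**
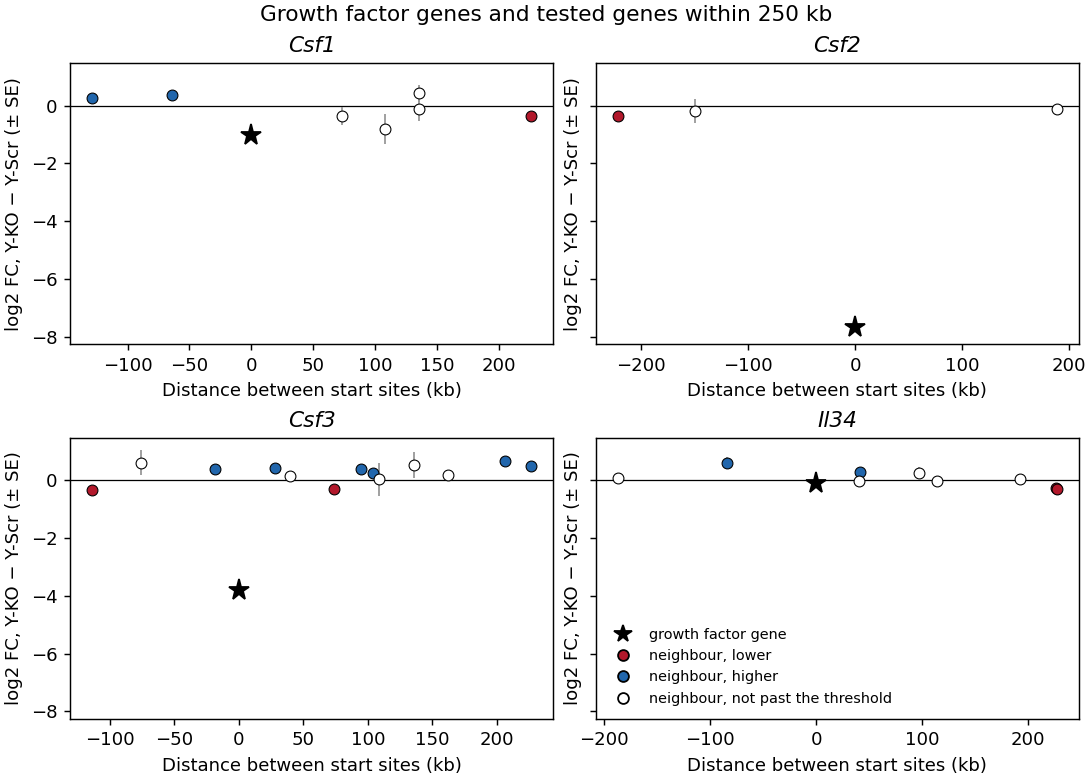
Log2 fold change ± SE, Y-KO minus Y-Scr, of the 4 members (stars) and of tested genes within 250 kb, against the distance between start sites in kb. The stars of Csf2 (-7.66) and Csf3 (-3.80) lie below all of their neighbours.

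The protein-coding genes with the closest pattern were found by the root mean square difference of centred log2 CPM (prior count of 2) over the 6 libraries, a description in which the group difference weighs most. Nearest to Csf2 were Rtp4 (0.27), Ifit1 (0.34), Oasl2 (0.43) and Pthlh (0.47). The first 3 are known as interferon-stimulated genes and Pthlh encodes parathyroid hormone-related protein. Rtp4 stood at 0.0537 CPM in Y-KO and 30.1 CPM in Y-Scr. Nearest to Csf3 were Dhx58 (0.13), an RNA sensor gene of the interferon response, the collagenase gene Mmp13 (0.22), the interferon-inducible GTPase gene Igtp (0.26) and Oas1g (0.26), of the oligoadenylate synthetases, whose near copies could share reads. Nearest to Csf1 were Hbegf (0.05), which encodes a ligand of the EGF receptor, Apobec1 (0.06), Susd6 (0.06) and Neurl1a (0.06). Hbegf stood at 103 CPM in Y-KO and 203 CPM in Y-Scr. Nearest to Il34 were Zbtb26 (0.02), Btbd3 (0.03), Slc35f5 (0.03) and Bclaf3 (0.04), none of them called.

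As a check of the labels, the Y genes Ddx3y, Eif2s3y, Kdm5d and Uty had 0 counts in every Y-KO library and 3296 to 8525 counts over the Y-Scr libraries. The libraries held 15698510 to 18327877 counts in Y-KO and 15907451 to 24633158 in Y-Scr. Markers of white blood cells were checked because such cells make and receive these factors. Ptprc, Cd3e and Itgam had 0 counts in all 6 libraries, and the summed level of the 11 listed markers was 137 to 146 CPM in Y-KO and 174 to 178 CPM in Y-Scr, most of it from Cd68 and Cd14. Mpo had 26, 2 and 0 counts in Y-KO 1, 2 and 3 and 0 in Y-Scr. Of the 4 tested markers, Cd14 (-0.56), Ly6g (-0.80) and Cd68 (-0.17) fell and 0 rose. Over all tested genes, 23.0% were lower and 20.7% higher, and a count on 4 markers carries no test of the list. Cd68 lost its call without Y-KO 1 (-0.17), Y-KO 2 (-0.15), Y-KO 3 (-0.19) or Y-Scr 3 (-0.14), with DESeq2 (-0.16), upper-quartile scaling (-0.16), no low-count filter (-0.18) or the replicate block (-0.17), and with the length trend removed, with or without the block (-0.02 in both). The summed endothelial markers stayed between 0.996 and 1.45 CPM in Y-KO and 0.544 and 1.13 CPM in Y-Scr, and the fibroblast markers between 16.3 and 18.4 CPM in Y-KO and 10.5 and 11.8 CPM in Y-Scr. Of the fibroblast markers, Pdgfra rose to 14.4 CPM in Y-KO, against 8.68 CPM in Y-Scr (0.73), and Dcn was not called. Of the urothelial markers, 5 of 16 were tested, of which 2 rose and 1 fell. With 20.7% higher and 23.0% lower over all tested genes, nothing is read from these counts about the list. The keratin gene Krt8 rose to 2816 CPM in Y-KO, against 2188 CPM in Y-Scr (log2 fold change 0.36), and Krt18, at 1351 CPM in Y-KO and 1326 CPM in Y-Scr, was not called. Krt18 was called higher with the length trend removed, with or without the block (0.18 in both), and changed sign without Y-Scr 1 (-0.02). The keratin gene Krt19 rose to 7.53 CPM in Y-KO, against 1.42 CPM in Y-Scr (2.37), and Gata3, a urothelial transcription factor gene, fell to 2.81 CPM in Y-KO, against 7.80 CPM in Y-Scr (-1.48). Foxa1, another urothelial transcription factor gene, had no call in the main fit. It was called higher with RLE (0.36) or upper-quartile scaling (0.36), at least 1 CPM in 3 libraries (0.35) or protein-coding genes alone (0.34). The same held without Y-Scr 3 (0.44) and with the length trend removed (0.40, and 0.41 with the block). The adhesion genes Epcam and Cdh1 and the uroplakin gene Upk3a had 0 counts throughout, and the other uroplakin genes had at most 14 counts in a group, so markers that define mature urothelium were absent or near 0. The part that the called markers of these lists have in the results was not tested.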

How the data were processed

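The authors deposited whole-number read counts per gene for the 6 libraries, with no normalization. Gene length in bases, the other value used, came with the deposited table. The submitters' processing notes name Trimmomatic 0.39, STAR 2.5.2b and featureCounts 1.5.3, DESeq2, quality control with FastQC 0.12.1 and MultiQC 1.13, and the builds GRCm39 and mm39. Of 54409 genes shared with a GRCm38 annotation, 98.3% had the same coordinates, the 4 members included, so coordinates are given as GRCm38. Whether counting used strand is not stated in those notes.

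Groups were compared with edgeR 4.0.16 (R 4.3.3): TMM scaling, filterByExpr, a robust quasi-likelihood fit on group alone, and Benjamini-Hochberg adjustment over 12907 genes with a threshold of 0.05. The fit was also run on simulated counts, and the outcome is not given here. No library repeated another of its group, with a chi-square per degree of freedom of 3.55 to 16.0 between them, above sampling noise. PCR copies were not marked, so intervals and the floor of 3 counts cover counting error only. Lists were described by counts and medians, without set tests. Alternatives were RLE and upper-quartile scaling, DESeq2 1.42.0, limma-voom (limma 3.58.1), other low-count filters, protein-coding genes alone, removal of a length trend (natural splines, 4 degrees of freedom), the replicate number as a block, other distances and each library left out.

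The members and lists were chosen with earlier results of these data known, and the AU-rich search was added after values were seen. Named genes were the members, the receptors, up to 5 tested genes per list with the smallest adjusted p plus up to 3 that moved the other way, 4 closest patterns per member and the nearest tested gene on either side. Others are named after their values were seen. Protein sequences were not used here, and 1 gene of the marker lists is not reported here.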

Additional observations from a re-analysis of the deposited data

How the results depend on the processing

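Csf1, Csf2 and Csf3 kept their direction and call in all 16 alternative settings. Over these, Csf1 ranged from -1.06 to -0.97, Csf2 from -7.98 to -7.47 and Csf3 from -3.95 to -3.56 on the log2 scale, and the extremes of each came from leaving out 1 library. Il34 had no call in any setting (adjusted p 0.196 to 0.832), ranged from -0.15 to -0.03 with a library left out, and changed sign with the length trend removed (0.0409, and 0.0415 with the replicate block as well). The replicate numbers did not pair the libraries: same-numbered libraries correlated at -0.06, -0.03 and -0.02. With the replicate block, Csf1, Csf2 and Csf3 kept their calls, and 2627 genes were lower and 2333 higher, against 2966 and 2667 without it. Counts of higher genes moved with the length trend removed: inducing signals 0 and AU-rich factors 3, with the same values when the replicate block was added, and then transcription factors 1 and signal carriers 1. Neighbouring genes that fell numbered 3 with the length trend removed, with or without the replicate block. Within 100 kb, 14 neighbours were tested, of which 1 fell and 6 rose. Within 1000 kb, 111 were tested, of which 23 fell and 32 rose, against 23.0% lower and 20.7% higher over all tested genes. With a library left out, higher inducing signals ranged from 0 to 1 and higher signal carriers from 3 to 5. The cause was not tested. Few reads limit Csf2 in Y-KO, Tslp, Il11 and the receptors.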
